A study of Mus musculus with 24 samples.

Results

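The 9 genes described here, Vsx1, Grm6, Trpm1, Prkca, Cabp5, Otx2, Pcp2, Scgn and Gng13, are used to mark bipolar cells of the mouse retina. They were taken by name from the 36595 gene rows of the retina count table, through the Ensembl identifier of each row. No threshold on a measured value picked them, but they were chosen with earlier results of these data known. All 9 were found, and all 9 were among the 19173 genes left after a filter on low counts. RNA from whole retinas of 12 mice was sequenced, 3 in each of 4 groups, and the series also holds 12 lungs. WT-RA retinas came from wild-type mice kept in room air from postnatal day 1 to 17, and WT-O2 retinas from wild-type mice that breathed 75% oxygen between postnatal days 7 and 12 before a return to room air. KO-RA and KO-O2 retinas came from littermates that lack gasdermin D (GSDMD), the pore-forming protein of pyroptotic cell death, under the same exposures. The knockout is in every cell of the animal and was made by a deletion of 38 bp in exon 5 of Gsdmd. Retinas were collected on postnatal day 18 from all 4 groups. The oxygen exposure is a model of retinopathy of prematurity. In this model, vessels of the central retina are first lost under oxygen, and abnormal new vessels later form at the edge of the area without vessels.

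Bipolar cells carry the signal of rods and cones to amacrine and ganglion cells. ON bipolar cells, to which all rod bipolar cells belong, sense glutamate through the receptor mGluR6. Glutamate released in the dark acts through mGluR6 and a Go protein to hold the cation channel TRPM1 closed, and light opens it. OFF bipolar cells sense glutamate through AMPA and kainate receptors instead. Both kinds form late in retinal development, in the inner nuclear layer, under homeodomain factors such as OTX2. In RNA of a whole retina, fewer bipolar cells and less RNA per bipolar cell cannot be told apart.

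Among the 9 genes, 2 had windows upstream of a transcript start that are shown here because 1 gene rose and the other fell in these retinas and both windows hold a short element. In the RefSeq sequences for GRCm38.p6, all 9 genes matched, with 17 transcript starts between them. The letters GGATTA, read on either strand, are the core bound by OTX and CRX homeodomain proteins and stood within 250 bases upstream of 3 of the 17 starts, 1 each of Trpm1, Cabp5 and Otx2. The same letters were in 6.25% of the 32851 mouse windows of that length. The E-box CAGATG, read on either strand, was upstream of 4 starts of 3 members and in 14.4% of all windows. Of the 4, 2 are starts of Pcp2 whose windows overlap and hold the same site. TAATTA, a homeodomain core that reads alike on both strands, was upstream of 3 member starts and in 4.84% of windows. CATATG, also alike on both strands, was upstream of 0 member starts and in 3.46% of windows. The window of the first Trpm1 start is chr7:64153585-64153834 and that of Cabp5 is chr7:13397905-13398154, both on the plus strand of GRCm38.p6, and each ends at the base before the transcript start. Capitals mark the OTX/CRX core and the E-box on either strand.
Trpm1, first start: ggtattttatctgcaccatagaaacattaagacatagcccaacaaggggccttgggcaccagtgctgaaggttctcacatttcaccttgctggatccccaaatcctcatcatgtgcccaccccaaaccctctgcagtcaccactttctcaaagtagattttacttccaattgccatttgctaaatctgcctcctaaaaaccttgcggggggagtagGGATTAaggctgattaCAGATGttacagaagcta
Cabp5: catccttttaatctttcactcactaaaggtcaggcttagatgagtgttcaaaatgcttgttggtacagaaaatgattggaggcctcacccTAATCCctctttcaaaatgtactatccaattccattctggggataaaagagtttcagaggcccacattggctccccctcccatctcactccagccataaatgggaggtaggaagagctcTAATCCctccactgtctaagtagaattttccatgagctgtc
In the Trpm1 window the element began 34 bases before the start, with CAGATG 18 bases before it. In the Cabp5 window it began 160 and 41 bases before the start. RefSeq gives Trpm1 a further start at position 64185459, whose window held neither element, and the counts are per gene, so transcripts from the 2 starts were not separated. A match of letters is a description of the sequence, not a sign of binding.

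The levels are given as CPM, counts scaled to a common library size, with library sizes set by the trimmed mean of M values. The total count per retina was 24863257 to 29093035, and the smallest count of any member in any retina was 233, for Vsx1. Lens transcripts stood apart in 3 libraries: 11 lens genes summed to 23500, 70500 and 35100 CPM of the library's total in WT-RA replicates 2 and 3 and KO-RA replicate 3, against 5.5 to 362 CPM in the other 9. Pigment epithelium genes summed to 2710 CPM in KO-RA replicate 3 and to 120 to 598 CPM elsewhere. All room-air retinas (3 WT-RA and 3 KO-RA) held Y-linked transcripts, but only 1 WT-O2 and 1 KO-O2 retina did, so sex moved with exposure. The p-values weigh a difference between groups against the spread between mice within the groups. Gsdmd itself was at 0.64 to 2.95 CPM in the 6 retinas labelled KO and at 0.42 to 5.70 CPM in the 6 labelled WT. The ranges overlapped, with a WT-RA retina the lowest of all, and a count per gene can miss so small a deletion, so this checks the labels only weakly.

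Apart from Prkca, the 9 genes were near or at 0 in lung. Otx2 had 0 counts in all 12 lungs, against 358 to 548 CPM of the library's total in the retinas. Vsx1, Cabp5 and Scgn reached at most 0.0347 CPM in a lung. Grm6, Trpm1, Pcp2 and Gng13 reached at most 0.312, 0.489, 0.394 and 0.579 CPM. Prkca, which encodes a protein kinase C found in many tissues and in rod bipolar cells, was at 50.2 to 91.9 CPM in lung and 64.6 to 109 CPM in retina. The 2 tables were made separately, so these levels were set side by side with no test.

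Per length of annotated exons, the order of the 9 genes in WT-RA was Gng13, Pcp2, Otx2, Scgn, Cabp5, Grm6, Trpm1, Prkca and Vsx1. Gng13 was at 500 ± 126 CPM per kb (SD, n = 3) and Vsx1 at 4.14 ± 0.599 CPM per kb. No neighbours in this order overlapped in WT-RA or WT-O2. The order was the same in the other 3 groups, but Trpm1 overlapped Prkca in KO-RA (9.89 to 13.6 against 9.83 to 11.3 CPM per kb). Trpm1 overlapped the gene above it, Grm6, in KO-O2 (17.4 to 18.6 against 18.5 to 22.3 CPM per kb). Trpm1 stood at 11.6 CPM per kb in WT-RA, 10.6 in WT-O2 and 12.3 in KO-RA.

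**Figure D1:**
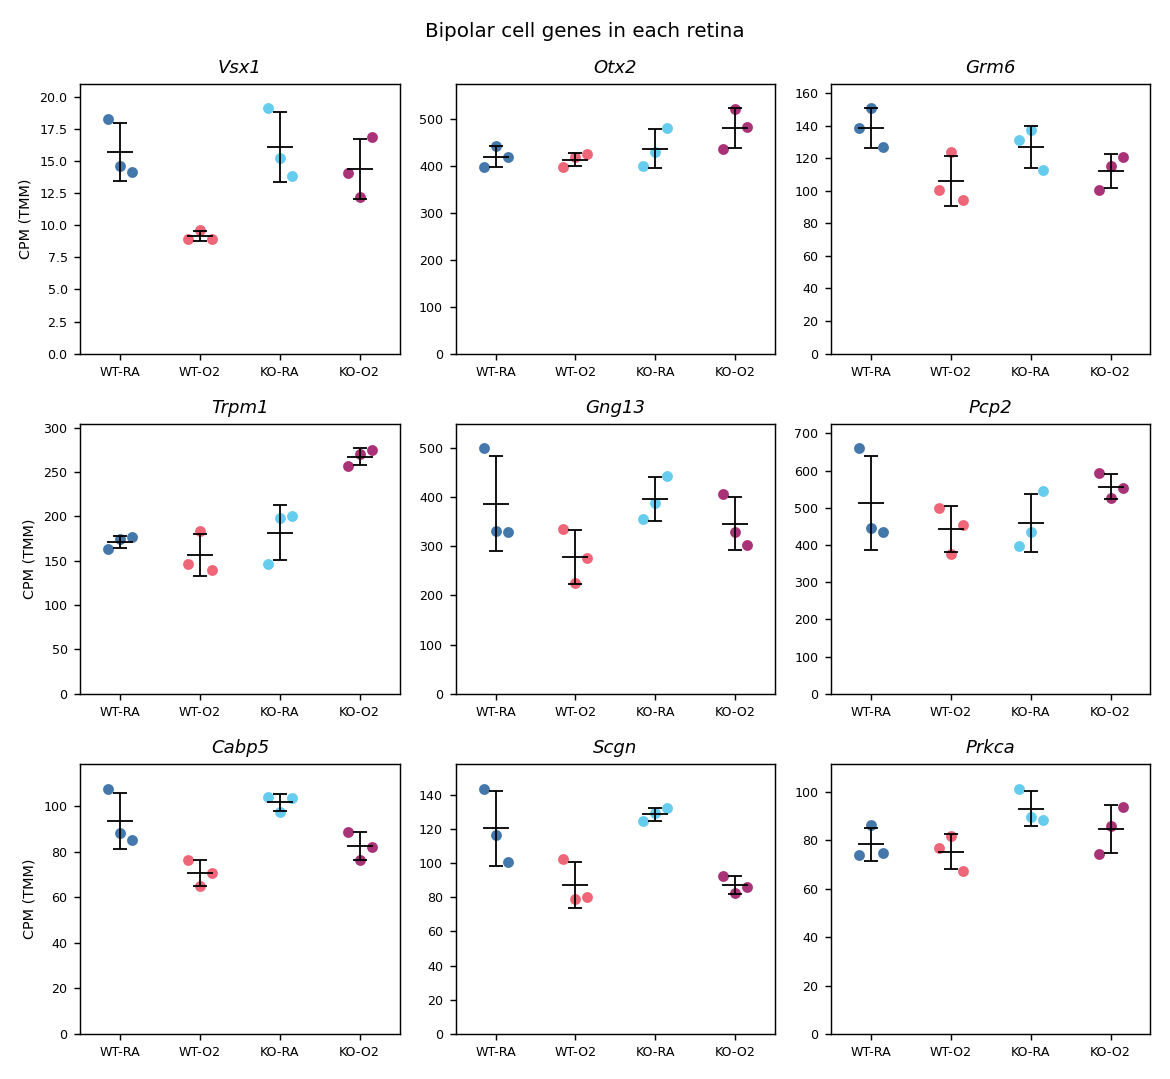
CPM of each of the 9 genes (vertical axes, from 0) in each retina, by group. Points are retinas, black bars are the mean ± SD of 3, and the 3 WT-O2 retinas of Vsx1 (8.92 to 9.67 CPM) and the 3 KO-O2 retinas of Trpm1 (256.8 to 275.0 CPM) lie apart from the other groups.

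Hyperoxia in WT mice asks how bipolar genes stood after oxygen and the days of recovery in room air. Vsx1, Cabp5 and Scgn were lower in WT-O2 than in WT-RA, and fell by 41.5%, 24.5% and 27.6%. All 9 genes had a log2 fold change below 0, from -0.77 to -0.02, with a median of -0.38 beside a median of 0.001 over all genes tested. Otx2 was at -0.02 (SE 0.10) and Prkca at -0.06 (SE 0.11), both within their error. A gene passed at an adjusted p under 0.1 in the quasi-likelihood test of edgeR, with p adjusted by Benjamini and Hochberg's method over all genes tested. By this rule 3 of 9 members passed, all lower, beside 5.16% of all genes (3.11% higher and 2.05% lower), and 5 of 9 had an unadjusted p under 0.05 beside 17.4%. No member changed by a factor of 2, which the study's own rule asked for beside its thresholds on p and which 2.04% of all genes met.

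Vsx1 encodes a homeodomain factor of cone bipolar cells that is needed for their late differentiation, and lies at chr2:150680702-150689360 on the minus strand of GRCm38. Its level was 18.3, 14.6 and 14.2 CPM in the 3 WT-RA retinas and 8.97, 9.67 and 8.92 CPM in the 3 WT-O2 retinas. Every WT-O2 retina was below every WT-RA retina, and the WT-O2 retinas lay within 1 CPM of each other. The log2 fold change was -0.77 (SE 0.16, adjusted p = 0.0318). The adjusted p of edgeR was 0.103 without WT-O2 replicate 1, 0.106 without WT-O2 replicate 3 and 0.117 without WT-RA replicate 1, with log2 fold changes of -0.84 to -0.65 over the 6 retinas left out in turn.

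Otx2, the homeodomain factor that photoreceptors and bipolar cells both need, lies at chr14:48657677-48673819 on the minus strand and was the member nearest to no difference. It was at 398.2, 442.1 and 418.6 CPM in WT-RA and at 397.5, 418.1 and 425.5 CPM in WT-O2, and the groups overlapped. Otx2 is also made by rods, cones and the pigment epithelium, so its level is not that of bipolar cells alone.

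In the cascade of the ON bipolar dendrite, 0 of 4 members passed in edgeR, with Grm6 and Gng13 at an unadjusted p under 0.05, beside 17.4% of all genes. Grm6 passed in DESeq2, beside 10.2% of the genes it gave an adjusted p. Grm6, at chr11:50850685-50866208 on the plus strand, encodes mGluR6. Its level was 138.3, 150.7 and 126.6 CPM in WT-RA and 100.6, 123.6 and 94.4 CPM in WT-O2. The groups did not overlap, the log2 fold change was -0.38 (SE 0.12), and the adjusted p was 0.136 in edgeR, just outside the threshold, 0.047 in DESeq2, and 0.0994 in edgeR without WT-O2 replicate 2. Gng13, at chr17:25717171-25719406 on the plus strand, encodes a G protein gamma subunit of the same cascade. WT-RA replicate 1, at 498.8 CPM, was far above the other 2 WT-RA retinas at 331.6 and 329 CPM, and the WT-O2 retinas were at 335.2, 224.5 and 275 CPM. The groups overlapped, and the log2 fold change of -0.47 had an SE of 0.19 and an adjusted p of 0.236 by edgeR. Pcp2, at chr8:3623371-3625545 on the minus strand, encodes a modulator of Go in ON bipolar cells. It was at 659.7, 444.6 and 435.8 CPM in WT-RA and 498.0, 374.7 and 454.1 CPM in WT-O2, which overlapped, with a log2 fold change of -0.22 (SE 0.18). Trpm1, the channel at the end of the cascade, was at 163.5, 173.9 and 176.1 CPM in WT-RA and 146.6, 183.0 and 138.9 CPM in WT-O2. The highest WT-O2 retina was above all WT-RA retinas, and the log2 fold change was -0.13 (SE 0.13, edgeR adjusted p = 0.669).

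Both calcium-binding proteins passed in edgeR, both lower, beside 5.16% of all genes (2.05% lower). Cabp5, at chr7:13398132-13408887 on the plus strand, encodes a calmodulin-like protein of rod bipolar and some cone bipolar cells. Its level was 107.8, 88.1 and 85.1 CPM in WT-RA and 76.3, 65.1 and 70.8 CPM in WT-O2, and the groups did not overlap. The log2 fold change was -0.41 (SE 0.11, edgeR adjusted p = 0.0691). The adjusted p was 0.125 without WT-RA replicate 2, 0.2 without WT-RA replicate 1, and 0.111, 0.236 and 0.178 without WT-O2 replicates 1, 2 and 3. With only the 2 groups fitted it was 0.151. Scgn, at chr13:23953456-23991214 on the minus strand, encodes secretagogin, a calcium sensor of several cone bipolar types. Its level was 143.8, 116.6 and 100.7 CPM in WT-RA and 102.6, 78.9 and 79.9 CPM in WT-O2, where the highest WT-O2 retina was above the lowest WT-RA retina. The log2 fold change was -0.47 (SE 0.14), and the edgeR adjusted p of 0.0982 was just inside the threshold. It was 0.291 and 0.191 without WT-RA replicates 1 and 2, and 0.297 and 0.271 without WT-O2 replicates 2 and 3. It was also 0.1 with size factors by RLE and 0.105 with library sizes without the 50 most abundant genes. With no filter on low counts it was 0.126, and with only the 2 groups fitted 0.21. Prkca, at chr11:107933387-108343928 on the minus strand, was at 73.9 to 86.4 CPM in WT-RA and 67.5 to 81.9 CPM in WT-O2.

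The groups of 3 did not overlap for 3 of the 9 genes, Vsx1, Grm6 and Cabp5, beside 24% of all genes. WT-RA replicate 1 was the highest WT-RA retina for Vsx1, Cabp5, Scgn, Gng13 and Pcp2, and had the fewest lens transcripts of its group, at 63.1 CPM. Without WT-RA replicate 2 and 3 in turn, Vsx1 stayed past the threshold. With the presence of Y-linked transcripts as a term, Vsx1 passed, at an edgeR adjusted p of 0.0723, and Cabp5 and Scgn were at 0.239 and 0.365.

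**Figure D2:**
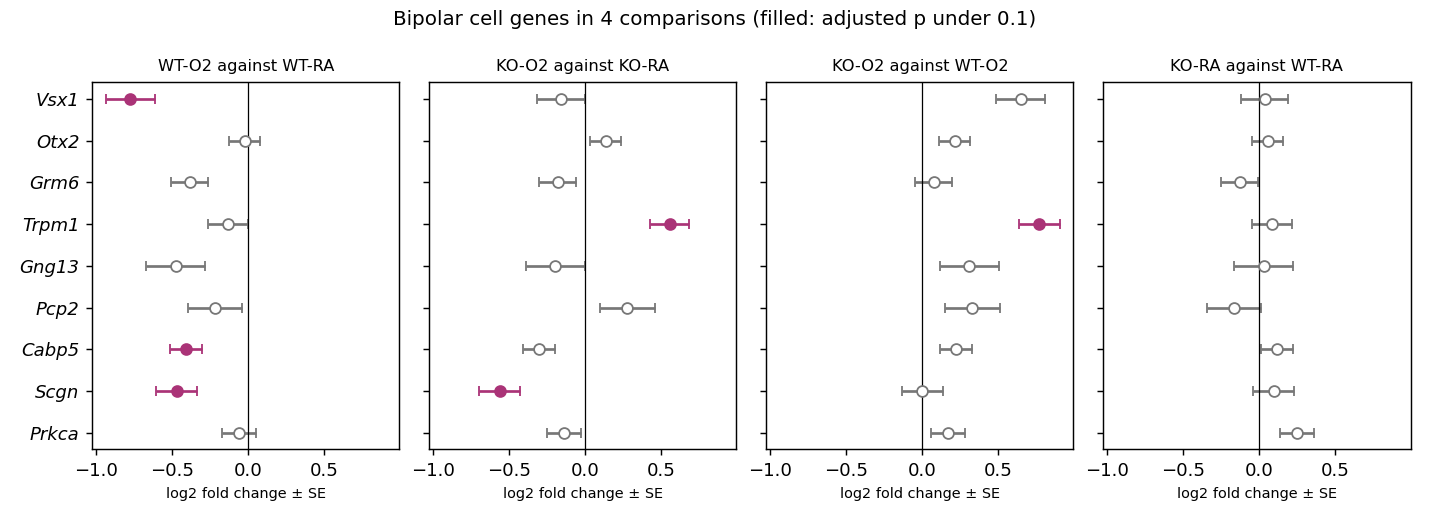
Log2 fold change ± SE (horizontal axes) of the 9 genes in 4 comparisons from one edgeR fit of 12 retinas, with filled points at an adjusted p under 0.1. In WT-O2 against WT-RA all 9 lie below 0, and in KO-O2 against WT-O2 all 9 lie above 0, from 0.002 to 0.78, where Trpm1 alone is filled.

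In GSDMD-KO mice, Trpm1 was higher and Scgn lower after hyperoxia, an exposure that moved with sex in these retinas. Trpm1 rose by a factor of 1.47 in KO-O2 against KO-RA, and Scgn fell to 0.677 of its KO-RA level. Of the 9 genes, 3 had a log2 fold change above 0 (Trpm1, Otx2 and Pcp2) and 6 below, with a median of -0.16 beside 0.001 over all genes. In the edgeR test 2 of 9 passed, 1 in each direction, beside 7.82% of all genes (4.38% higher and 3.44% lower), and 3 of 9 had an unadjusted p under 0.05 beside 20.3%. No member reached a factor of 2, beside 2.19% of all genes. The groups did not overlap for 3 of the 9, Trpm1, Cabp5 and Scgn, beside 26.2% of all genes.

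Trpm1 lies at chr7:64153835-64269775 on the plus strand and is also made by melanocytes and the pigment epithelium. Its level was 145.8, 198.2 and 200.4 CPM in KO-RA and 256.8, 269.9 and 275.0 CPM in KO-O2. Every KO-O2 retina was above every retina of the other 3 groups, while KO-RA replicate 1 stood well below its group. The log2 fold change was 0.56 (SE 0.13, edgeR adjusted p = 0.0418). It was 0.42 without KO-RA replicate 1, with an adjusted p of 0.112, and the adjusted p was 0.143 and 0.109 without KO-O2 replicates 2 and 3. Pigment epithelium genes summed to 396 to 2710 CPM in KO-RA and 121 to 309 CPM in KO-O2, and their part in the Trpm1 values was not tested.

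Scgn was at 124.7, 129.5 and 132.1 CPM in KO-RA and at 92.6, 82.7 and 86.4 CPM in KO-O2, with a clear gap between the groups. The log2 fold change was -0.56 (SE 0.14, edgeR adjusted p = 0.0439), beside -0.47 in WT mice. The adjusted p was 0.107, 0.102 and 0.117 without KO-RA replicates 1, 2 and 3, and 0.174 and 0.114 without KO-O2 replicates 2 and 3. Cabp5 was at 101.7 ± 3.65 CPM (SD, n = 3) in KO-RA and 82.5 ± 6.22 CPM (SD, n = 3) in KO-O2, which did not overlap, with a log2 fold change of -0.30 (SE 0.11, edgeR adjusted p = 0.135). Cabp5 passed there in DESeq2 (adjusted p = 0.0483) and in edgeR with an offset for the trend of counts with gene length in each retina (adjusted p = 0.0608). Vsx1, which fell in WT mice, was at 19.2, 15.3 and 13.9 CPM in KO-RA and 14.1, 12.2 and 16.9 CPM in KO-O2. These overlapped, and the log2 fold change was -0.16 (SE 0.16, edgeR adjusted p = 0.627). Pcp2 was at 396.3 to 545.0 CPM in KO-RA and 526.9 to 592.2 CPM in KO-O2, and Otx2 at 399.2 to 481.4 and 436.1 to 521.3 CPM. Grm6, Gng13 and Prkca overlapped between the groups, with log2 fold changes of -0.18, -0.19 and -0.14. With the Y-linked term, 0 of 9 members passed, and Trpm1 and Scgn had edgeR adjusted p of 0.141 and 0.195, with log2 fold changes of 0.52 and -0.47.

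The retinas of both genotypes after hyperoxia were compared to ask how the knockout stood in the same exposure. Trpm1 was 1.71 times higher in KO-O2 than in WT-O2, with 256.8 to 275.0 CPM against 138.9 to 183.0 CPM, and was the only member to pass, beside 1.27% of all genes (0.569% higher and 0.704% lower). An unadjusted p under 0.05 was found for 2 of 9, beside 12.6%, and a factor of 2 for 0 of 9, beside 0.292%. Its log2 fold change was 0.78 (SE 0.13, edgeR adjusted p = 0.0395), and 44 of the 19173 genes had a smaller p. The other 8 members had log2 fold changes from 0.002 to 0.65, so all 9 were above 0, with a median of 0.22 beside 0.009 over all genes. The groups of 3 did not overlap for 5 of the 9, Vsx1, Trpm1, Cabp5, Otx2 and Pcp2, beside 19.9% of all genes.

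Vsx1 was nearest to passing among the rest: KO-O2 retinas held 12.2 to 16.9 CPM against 8.92 to 9.67 CPM in WT-O2, 1.57 times as much (log2 0.65, SE 0.16, adjusted p = 0.115 in edgeR and 0.0206 in DESeq2). Otx2 was at 436.1 to 521.3 CPM against 397.5 to 425.5 CPM in WT-O2, and Pcp2 at 526.9 to 592.2 against 374.7 to 498.0 CPM. Scgn had nearly the same mean, 87.2 ± 5.0 CPM in the KO-O2 group beside 87.1 ± 13.4 CPM in the WT-O2 group (SD, n = 3 each), with a log2 fold change of 0.002 (SE 0.13). Grm6 was at 112.1 ± 10.6 and 106.2 ± 15.4 CPM. The adjusted p of Trpm1 was 0.148 and 0.155 without KO-O2 replicates 2 and 3, and 0.168 and 0.171 without WT-O2 replicates 1 and 3, with log2 fold changes from 0.68 to 0.91 over the 6 retinas left out in turn. Pigment epithelium genes summed to 121 to 309 CPM after hyperoxia in KO and 120 to 294 CPM in WT. Of these 8 genes, 7 had a log2 fold change above 0, with a median of 0.21. In edgeR 0 of the 8 passed, with 0 at an unadjusted p under 0.05. In DESeq2 0 passed, and 1 had no adjusted p. Their part in the Trpm1 values was not tested. Erythroid genes were lower in KO-O2 (385 to 446 against 1030 to 1710 CPM), and their part in these results was not tested.

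Between KO-RA and WT-RA, 0 of 9 members passed in edgeR, beside 0.00522% of all genes, with 1 member (Prkca) at an unadjusted p under 0.05, beside 12.7% of genes. In DESeq2 0 members passed, beside 6.47% of the genes it gave an adjusted p. Log2 fold changes ran from -0.16 for Pcp2 to 0.25 for Prkca, with a median of 0.06 beside 0.001 over all genes. Prkca was at 101.5, 89.8 and 88.4 CPM in KO-RA and 73.9, 86.4 and 74.9 CPM in WT-RA (SE 0.11, edgeR adjusted p = 0.393). It was the only 1 of the 9 whose groups did not overlap, beside 17.7% of all genes.

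The interaction term tests whether the change with hyperoxia differed between the genotypes. In edgeR 0 of 9 members passed, beside 0.00522% of all genes, and 2 had an unadjusted p under 0.05, beside 10.6%. These were Trpm1, at 0.69 (SE 0.19, adjusted p = 0.237), and Vsx1, at 0.62 (SE 0.22, adjusted p = 0.354), both on the log2 scale. In DESeq2, 1 member passed, Trpm1, at 0.69 with an adjusted p of 0.026, beside 3.23% of the genes it gave an adjusted p. The rise of Trpm1 in KO mice and the fall of Vsx1 in WT mice were thus not shown by edgeR to differ from the change in the other genotype. These comparisons share groups, so their values are given side by side and not as separate evidence.

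Further genes of bipolar cells gave a wider view of the same retinas. The lists were written with results of these data known. Of 14 markers of single bipolar types, all 14 had a log2 fold change below 0 in WT-O2 against WT-RA (median -0.33). In edgeR 4 passed, beside 5.16% of all genes, and 2 of these changed by a factor of 2, beside 2.04%. In KO-O2 against KO-RA 11 of 14 were below 0 (median -0.21) and 4 passed, all lower, beside 7.82% of all genes. Chrm2, Tacr3 and Grik1 passed in both genotypes, and encode the M2 muscarinic receptor, the neurokinin NK3 receptor and the kainate receptor subunit GluK1, which is a glutamate receptor of OFF bipolar dendrites. Amacrine and ganglion cells also express some of these genes.

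Tacr3 was at 18.1, 13.3 and 12.9 CPM in WT-RA and 8.31, 8.67 and 7.32 CPM in WT-O2. It was at 20.6, 15.8 and 16.4 CPM in KO-RA and 7.57, 7.45 and 7.50 CPM in KO-O2. The hyperoxia retinas were below all room-air retinas in both genotypes, and the log2 fold changes were -0.87 (SE 0.15, edgeR adjusted p = 0.0155) in WT and -1.23 (SE 0.15, adjusted p = 0.00381) in KO. Grik1 was at 69.1 to 76.4 CPM in WT-RA, 43.1 to 51.7 in WT-O2, 75.6 to 87.2 in KO-RA and 52.4 to 62.7 in KO-O2. Its log2 fold changes were -0.61 (SE 0.10, edgeR adjusted p = 0.0107) and -0.50 (SE 0.10, adjusted p = 0.0223). The second had an adjusted p of 0.109 without KO-O2 replicate 2. Chrm2 was low, at 5.53 to 6.92 CPM in WT-RA and 2.69 to 3.21 CPM in WT-O2, and fell in both genotypes, by 1.07 and 0.88 on the log2 scale (edgeR adjusted p = 0.00912 and 0.019). In WT mice these 3 genes passed under all 15 alternatives tried, the 6 that leave out a retina included, and in KO mice Tacr3 and Chrm2 did. The remaining calls were Neto1 in WT mice (0.499 of its WT-RA level, edgeR adjusted p = 0.059) and Lrrtm1 in KO mice (0.705 of its KO-RA level, adjusted p = 0.0954), which are named after their values were seen. Neto1 passed without 1 of the 6 retinas and Lrrtm1 without 0 of 6. Their edgeR adjusted p reached 0.204 and 0.279 when a retina was left out, and was 0.214 and 0.314 with the Y-linked term.

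**Figure D3:**
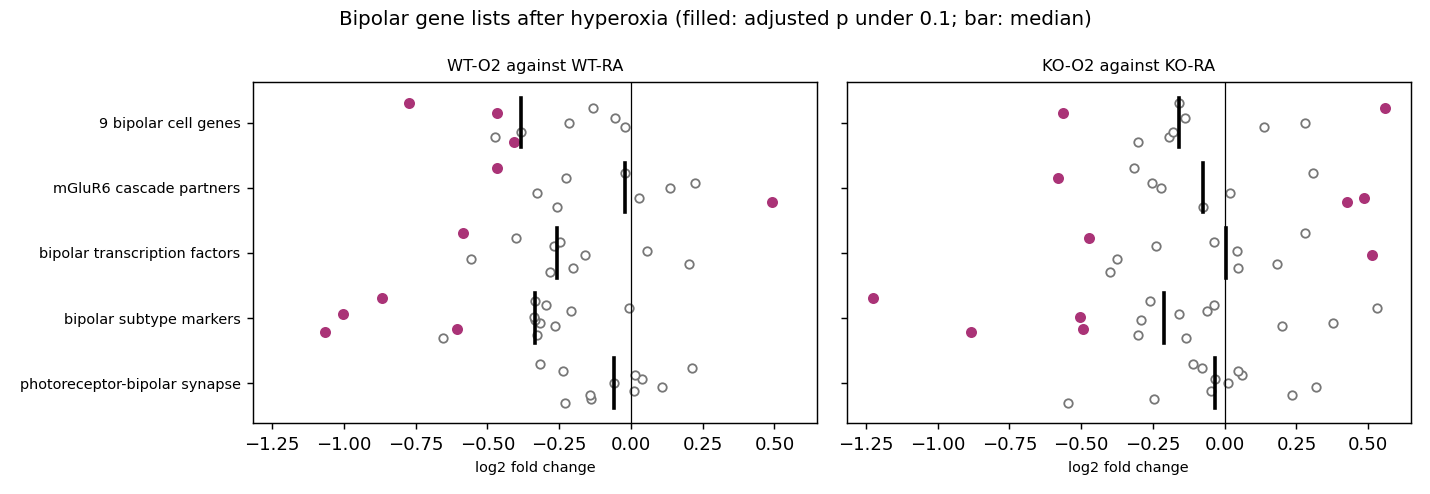
Log2 fold change (horizontal axes) of each gene of 5 bipolar lists after hyperoxia, in WT on the left and KO on the right. Each point is a gene, spread vertically only for legibility and filled at an adjusted p under 0.1, and bars are medians. In WT all 14 subtype markers lie below 0, and the synapse list has no filled point in either genotype.

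Transcription factors of the bipolar lineage were less uniform. Of 10, 8 were below 0 in WT-O2 against WT-RA (median -0.26), while in KO-O2 against KO-RA 5 were above 0 and 5 below (median 0.003). The latter had 1 edgeR call in each direction, beside 4.38% of all genes higher and 3.44% lower. Isl1, a LIM homeodomain factor of ON bipolar cells that ganglion and some amacrine cells also make, was at 118.6 to 129.5 CPM in WT-RA, 105.1 to 116.1 in WT-O2, 111.3 to 134.2 in KO-RA and 164.7 to 188.8 in KO-O2. As with Trpm1, every KO-O2 retina was above every other retina. Isl1 was higher by 0.51 (SE 0.09, edgeR adjusted p = 0.0139) in KO-O2 against KO-RA and by 0.68 (SE 0.09, adjusted p = 0.0211) in KO-O2 against WT-O2, on the log2 scale, and both passed under all 15 alternatives tried. Its interaction term was 0.67 (SE 0.13), with an adjusted p of 0.158 in edgeR and 6.12e-05 in DESeq2. Sebox, a homeodomain factor gene, was lower in KO mice (-0.47, SE 0.12, edgeR adjusted p = 0.0506) and at -0.40 (SE 0.12, adjusted p = 0.109) in WT mice. The WT value passed in DESeq2 (adjusted p = 0.0239). In edgeR it passed with the length offset (0.0755) and without WT-RA replicate 3 (0.0936). The interaction term of Sebox was -0.07 (SE 0.17, edgeR adjusted p = 0.914). The KO value passed without 2 of the 6 retinas, with an adjusted p of up to 0.187, and had an edgeR adjusted p of 0.158 with the Y-linked term. Without the 2 retinas highest in lens genes its edgeR adjusted p was 0.113.

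The partners of mGluR6 and TRPM1 moved both ways. In WT mice 2 of 9 passed in edgeR, Rgs7 lower and Gnb3 higher, beside 5.16% of all genes, with a median of -0.02. In KO mice 3 of 9 passed, Gnb5 and Gnb3 higher and Nyx lower, beside 7.82% of all genes, with a median of -0.08. DESeq2 passed 2 of 9 in WT mice, again Gnb3 and Rgs7, beside 10.2% of the genes it gave an adjusted p. In KO mice it passed 5 of 9, 2 higher and 3 lower, with Rgs7 and Lrit1 added, beside 14.3%. Gnb3, the G protein beta subunit of ON bipolar cells and also of cones, was at 460.6 to 473.6 CPM in WT-RA and 602.1 to 708.8 CPM in WT-O2 (log2 0.49, SE 0.12, edgeR adjusted p = 0.0577). It was at 348.7 to 400.5 CPM in KO-RA and 450.4 to 598.3 CPM in KO-O2 (log2 0.43, SE 0.12, adjusted p = 0.075). Gnb3 passed without 0 of the 6 retinas in WT mice and without 2 of 6 in KO mice, with adjusted p of up to 0.182 and 0.266. With the Y-linked term its edgeR adjusted p was 0.135 in WT and 0.12 in KO mice. Without the 2 retinas highest in lens genes it was 0.109 and 0.221. In KO mice it was also 0.106 with no filter and 0.172 with only the 2 groups fitted. Of 9 cone markers, edgeR passed 1 in each genotype, both lower, with medians of -0.09 and -0.08, and DESeq2 passed 1 higher and 2 lower in WT and 2 higher and 1 lower in KO. Over all genes, edgeR passed 5.16% in WT and 7.82% in KO mice. DESeq2 passed 10.2% and 14.3% of the genes it gave an adjusted p. The part of cones in the Gnb3 values was not tested. Rgs7, which with Gnb5 forms the complex that turns off Go, was lower in WT-O2 by -0.47 (SE 0.11, edgeR adjusted p = 0.0563), and passed without 2 of 6 retinas, with an adjusted p of up to 0.198. In KO mice Rgs7 was also lower, by -0.32 in DESeq2 (adjusted p = 0.0758). Its interaction term was 0.15 (SE 0.16, edgeR adjusted p = 0.773). Gnb5 was at 710.9 to 873.4 CPM in KO-RA and 1097 to 1178 CPM in KO-O2 (log2 0.48, SE 0.10, edgeR adjusted p = 0.0271, or 0.104 without KO-O2 replicate 2). Nyx, the gene for nyctalopin, which places TRPM1 at the dendrite tip, changed by -0.58 (SE 0.17, edgeR adjusted p = 0.0792) in KO mice and passed without 0 of 6 retinas, with an adjusted p of up to 0.249. With the Y-linked term, the edgeR adjusted p was 0.278 for Rgs7 in WT mice. It was 0.1 for Gnb5 and 0.111 for Nyx in KO mice, so these calls were lost. In KO-O2 against WT-O2, 0 of the 9 partners passed in edgeR, beside 1.27% of all genes. An unadjusted p under 0.05 was found for 3 (Gnb5, Gnb3 and Gpr179), beside 12.6%. In DESeq2, Gnb5 (0.38, adjusted p = 0.000625) and Gnb3 (-0.40, adjusted p = 0.0178) passed there, beside 5.8% of the genes it gave an adjusted p. In KO-RA against WT-RA, edgeR passed 0 of the 9, beside 0.00522% of all genes. DESeq2 passed 2, both lower, beside 6.47%, among them Gnb3 (-0.33, adjusted p = 0.0721). The interaction term was -0.07 for Gnb3 (SE 0.17, edgeR adjusted p = 0.929). For Gnb5 it was 0.46, with an adjusted p of 0.293 in edgeR and 0.0109 in DESeq2.

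Genes of the synapse between photoreceptors and bipolar cells had medians near 0. Of 11, 0 passed in edgeR in WT-O2 against WT-RA, KO-O2 against KO-RA or KO-O2 against WT-O2, with 1, 3 and 1 at an unadjusted p under 0.05, 0, 0 and 1 (Rims2) passing in DESeq2, and medians of -0.06, -0.03 and 0.003. Over all genes, edgeR passed 5.16%, 7.82% and 1.27% in these 3 comparisons. An unadjusted p under 0.05 was found for 17.4%, 20.3% and 12.6%. DESeq2 passed 10.2%, 14.3% and 5.8% of the genes it gave an adjusted p. Of 12 rod markers 0 passed in edgeR in either hyperoxia comparison, with 2 and 4 at an unadjusted p under 0.05, 2 and 4 passing in DESeq2, and medians of -0.09 and -0.08. The shares just given for WT and KO mice stand beside these counts too. In WT-O2 against WT-RA, the medians of 9 amacrine, 11 ganglion and 8 Mueller glia genes were -0.36, -0.30 and -0.34, close to the -0.38 of the bipolar genes. In KO-O2 against KO-RA they were -0.12, -0.31 and -0.15, beside -0.16. Of 4 horizontal cell genes, 2 were above and 2 below 0 in each comparison, with medians of -0.115 in WT and 0.064 in KO mice. Microglia genes summed to 99.9 to 144 CPM in WT-O2 against 42.2 to 62.9 CPM in WT-RA, and endothelial genes to 219 to 254 against 106 to 125 CPM. In the knockout, microglia genes summed to 96.3 to 132 CPM in KO-O2 against 55.9 to 60.3 CPM in KO-RA, and endothelial genes to 183 to 202 against 120 to 152 CPM. The part of these other cell types in the bipolar results was not tested.

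**Figure D4:**
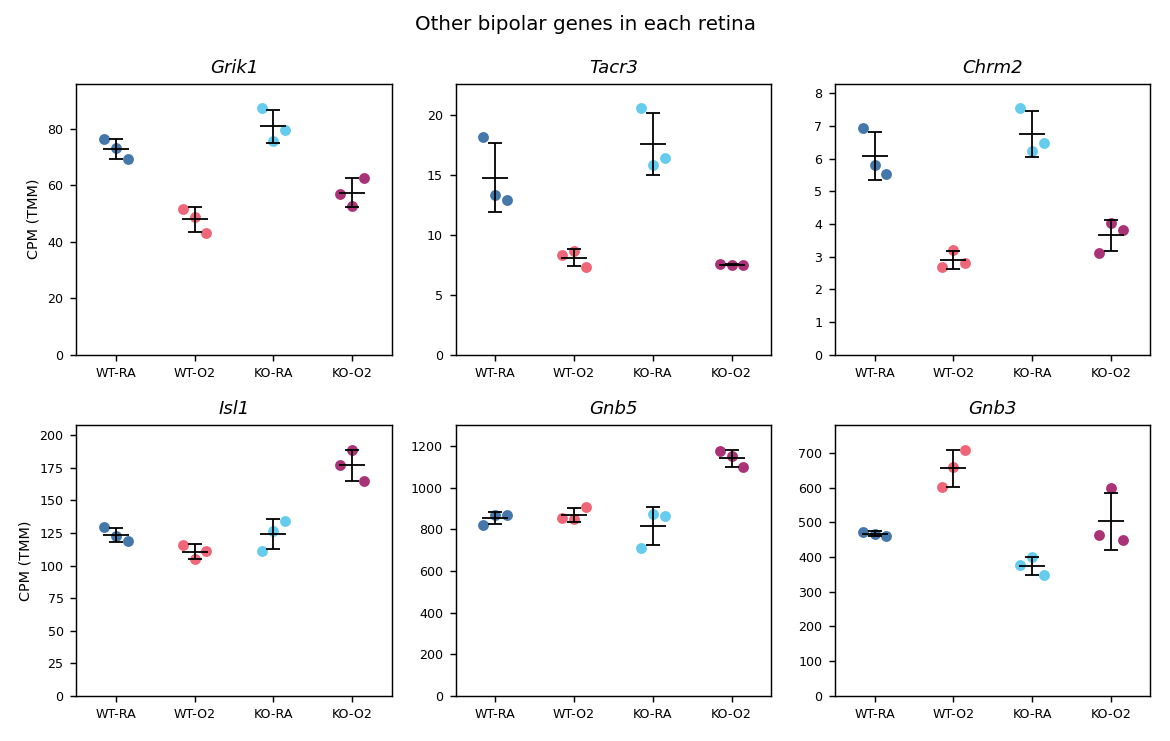
CPM (vertical axes, from 0) of 6 bipolar genes outside the 9, chosen after their values were seen, in each retina by group, with the mean ± SD of 3. Grik1, Tacr3 and Chrm2 are lower in both hyperoxia groups, and the KO-O2 retinas of Isl1 (164.7 to 188.8 CPM) lie above all others.

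Within groups, the 9 genes did not vary as 1 set. The deviations of the retinas from their group means, on the log2 scale over 12 retinas, had a median Pearson r of -0.03 over the 36 pairs of members, from -0.64 to 0.92. The 4 genes with the shortest exon length, Gng13, Scgn, Pcp2 and Cabp5 (773 to 2526 bp), varied together: their 6 pairs had a median r of 0.87, from 0.81 to 0.92. The 10 pairs among the 5 longer genes (3791 to 14746 bp) had a median r of 0.24, and the 20 mixed pairs -0.27. In 12 of 12 retinas the shortest and the longest genes of the table deviated in opposite directions, and in 10 of 12 the 4 short members deviated with the shortest genes. WT-RA replicate 1, where the 4 short members were 0.32 above their group mean, had a median deviation of 0.18 in the 1194 shortest of 11946 genes and -0.13 in the 1194 longest. WT-O2 replicate 2, where the 4 short members were 0.19 below, had -0.12 and 0.08. The pairs share libraries and were grouped by length after their values were seen, so r is given as a description.

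The length trend was also seen between groups. In KO-O2 against WT-O2 the 1194 longest genes had a median log2 fold change of 0.07, beside 0.78 for Trpm1, the longest member. In WT-O2 against WT-RA the 1194 shortest genes had a median of -0.08 and the longest 0.07, and in KO-RA against WT-RA they had -0.16 and 0.16. With an offset for the length trend of each retina, chosen after the data were seen, Trpm1 in KO-O2 against WT-O2 was at 0.71 (edgeR adjusted p = 0.0393). Vsx1 there was at 0.65 with an adjusted p of 0.0994, and Grm6 in WT-O2 against WT-RA at -0.40 with an adjusted p of 0.0931.

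**Figure D5:**
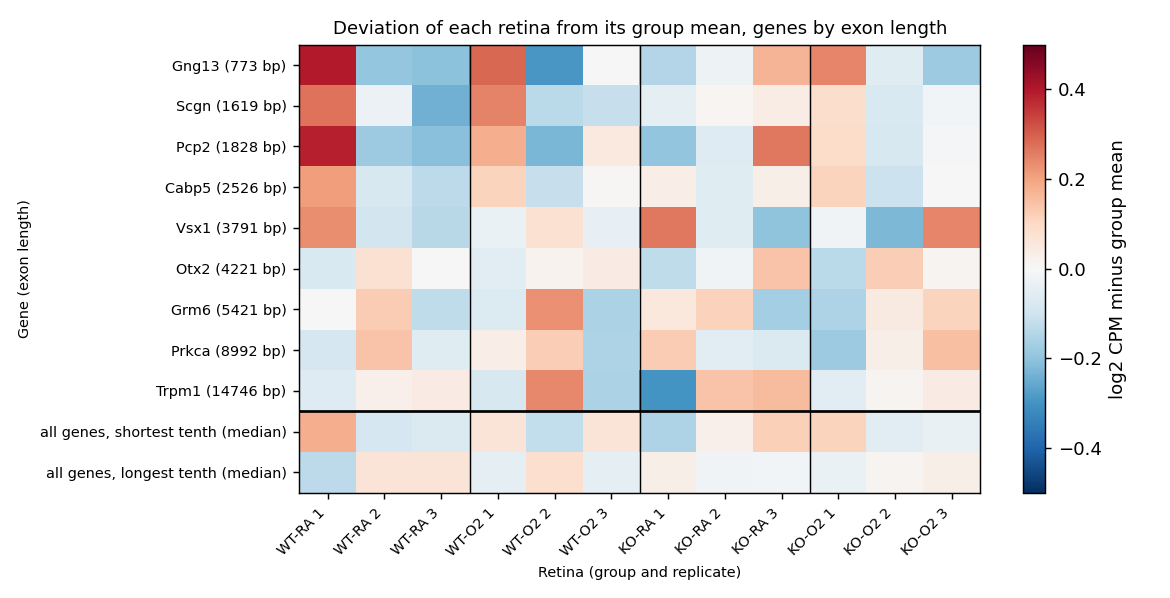
Deviation of each retina from its group mean in log2 CPM (colour) for the 9 genes, ordered from the shortest to the longest exon length, with the medians of the 1194 shortest and 1194 longest of 11946 genes below the line. The 4 shortest members change colour together, as in WT-RA replicate 1 (high) and WT-O2 replicate 2 (mostly low).

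The genes whose pattern over the 12 retinas was most like the mean of the 9, among 12095 genes of at least 5 CPM, were Gsg1, Pdss2, Gpld1, Uhrf1bp1l and Omg. Their Pearson r with that mean was 0.94, 0.92, 0.91, 0.91 and 0.90, and Spearman's rho was 0.80, 0.90, 0.88, 0.85 and 0.90. These are descriptions over retinas of 4 groups that share libraries.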

How the data were processed

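RNA-seq of 12 mouse retinas (3 per group) was used, and lungs only for levels. The authors assigned reads with kallisto to mouse transcripts, summed them per gene with tximport, and deposited expected counts (estimated counts). The labels name mm10 and the study's methods GRCm39. Only 0.35% of nonzero retina values were whole numbers (within 0.001), so the counts may have been scaled within libraries. Symbols and positions came from a GRCm38 annotation by Ensembl identifier (35968 of 36595 rows).

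Counts were rounded and fitted in R 4.3.3 with edgeR 4.0.16: TMM, filterByExpr by group, and robust glmQLFit with 1 term per group over 12 retinas. glmQLFTest contrasts were adjusted by the Benjamini-Hochberg method over 19173 genes, and passing meant an adjusted p under 0.1. SE was taken from the log2 fold change and the F statistic, as its size divided by √F. The script was tested on simulated data. DESeq2 1.42.0 was an alternative, beside others of scaling, filter, samples, a Y-linked term (present above 20 CPM) and leaving out each retina. Replicates are separate mice, numbered in accession order. The total count of a retina was 24863257 to 29093035 (median 27827879), so the spread between mice limits most members.

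The members and lists were chosen with earlier results of these data known. Genes named are the 9 members, Gsdmd, up to 3 genes of the smallest p per bipolar list and comparison, and the 5 genes most like the members' mean. Some genes that meet this rule are left out of the text, and 1 gene of the transcription factor list is not reported here.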

Additional observations from a re-analysis of the deposited data

How the results depend on the processing

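No paired analysis was possible because the labels carry no replicate number shared between groups. Of 720 refitted values of single members, 676 stayed on the same side of the threshold, 36 were lost and 8 were gained, and no called value changed sign. In WT-O2 against WT-RA, 3 members passed. DESeq2 and the length offset each gave 4, and size factors by RLE, library sizes without the 50 most abundant genes, no filter, and leaving out the retina highest in pigment epithelium genes each gave 2. Fitting only the 2 groups, adding the Y-linked term or asking for an adjusted p under 0.05 left 1, and adding the factor of 2 left 0. Leaving out 1 retina left 0 to 3. In KO-O2 against KO-RA, 2 passed, and DESeq2 and the length offset each gave 3. Fitting only the 2 groups left 1, leaving out the retina highest in pigment epithelium genes left 1, the Y-linked term 0 and the factor of 2 left 0, and leaving out 1 retina left 0 to 2. In KO-O2 against WT-O2, 1 passed, and DESeq2 and the length offset each gave 2, the factor of 2 gave 0, and leaving out 1 retina gave 0 to 1. For the interaction DESeq2 gave 1 in place of 0. The median log2 fold change of the members ran from -0.445 to -0.248 in WT mice, from -0.216 to -0.071 in KO mice and from -0.017 to 0.162 in room air when 1 retina was left out, and was -0.022 in room air without the 2 retinas highest in lens genes. Over all genes, DESeq2 passed 1915 and 2566 genes for hyperoxia in WT and KO beside 990 and 1500 in edgeR, 1001 beside 244 for KO-O2 against WT-O2, 758 beside 1 in room air and 569 beside 1 for the interaction, and the Y-linked term left 374, 836 and 116 of the first 3. The cause of these shifts was not tested.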
